A study of Mus musculus with 8 samples.

Results

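Kit, Flt3, Gata2, Mecom, Meis1, Myb and Hlf encode regulators of haematopoietic stem and progenitor cells, and their transcripts were followed in RNA-seq libraries of mouse knee cartilage. The 7 genes are a list of stem and progenitor cell regulators chosen by name, with earlier results of these data known. Each was found by its Ensembl identifier among the 50462 identifiers of the count table. All 7 were among the 17760 genes that received an adjusted p. The libraries come from wild-type male C57Bl/6J mice, 1 mouse per library. The 4 naive mice (D0) had no surgery and were 11 weeks old, and the 4 DMM mice (D42) were 17 weeks old, 42 days after destabilisation of the medial meniscus of the left knee by cutting the medial meniscus tibial ligament. No sham-operated mice were analysed here, so surgery and the 6 additional weeks of age cannot be told apart. The tissue was the dissected cap of medial knee cartilage, ground whole.

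Haematopoietic stem cells reside in bone marrow and give rise to all blood lineages through progenitors that divide and progressively commit. Kit and Flt3 are receptor tyrosine kinases of the same class, which respond to stem cell factor (Kitl) and to Flt3 ligand (Flt3l). Gata2, Mecom, Meis1, Myb and Hlf are transcription factors that maintain stem cells or the early steps of commitment. Several of these genes also act outside stem cells, with Kit and Gata2 in mast cells, Mecom, Meis1 and Gata2 in endothelium, Flt3 in dendritic and early lymphoid cells, and Hlf in the circadian output of many tissues.

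The libraries held between 12627770 and 16230518 estimated counts in the naive group and between 12479443 and 16548002 in the DMM group. Differences were tested across all genes with DESeq2, and a gene was called when its Benjamini-Hochberg adjusted p was 0.05 or less and its change 1.5-fold or more. A fold change is always DMM over naive, and normalised counts are estimated counts divided by a size factor per library. Some cartilage transcripts, among them Acan and Col2a1, were abundant and higher in DMM libraries. Acan had 5202.5 to 8260.3 normalised counts in naive and 11598 to 16873 in DMM libraries, and Col2a1 15101 to 36985 and 40178 to 97825. Of 10 tested chondrocyte markers 5 were called higher and 0 lower by DESeq2, compared with 7.75% and 5.92% of all tested genes. Their log2 fold changes had a median of 0.83, with 7 above 0 and 3 below. Among the 3 was the abundant Prg4 (-0.54, DESeq2 adjusted p = 0.407). The list took 0.5258% to 0.9733% of counts in naive and 0.9262% to 1.397% in DMM libraries. The part of this difference in the values of the 7 genes was not tested. The 10 neutrophil lineage markers took 0.885% to 1.236% of counts in naive and 0.4163% to 0.8716% in DMM libraries. The label names chondrocytes as the cell type, and these libraries also held blood cell transcripts.

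None of the 7 genes was called in either direction by DESeq2 or by edgeR, compared with 5.92% of all tested genes called lower and 7.75% called higher. All 7 had an unadjusted p under 0.05, compared with 33% of tested genes. The list was chosen with earlier results of these data known, so this comparison is not an independent test. Kit, Flt3, Gata2, Meis1 and Myb were lower in DMM cartilage, and Mecom and Hlf were higher. The changes ranged from -0.51 for Gata2 to 0.59 for Mecom on the log2 scale, with a median of -0.34, beside a median of -0.02 over all genes tested. Kit and Flt3 were the 2 genes that passed the adjusted p without reaching 1.5-fold, compared with 11.2% of tested genes lower and 11.4% higher at that adjusted p alone. In bulk tissue, fewer cells of a type and less RNA per cell cannot be told apart. The plot of normalised counts by library shows each value.

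**Figure D1:**
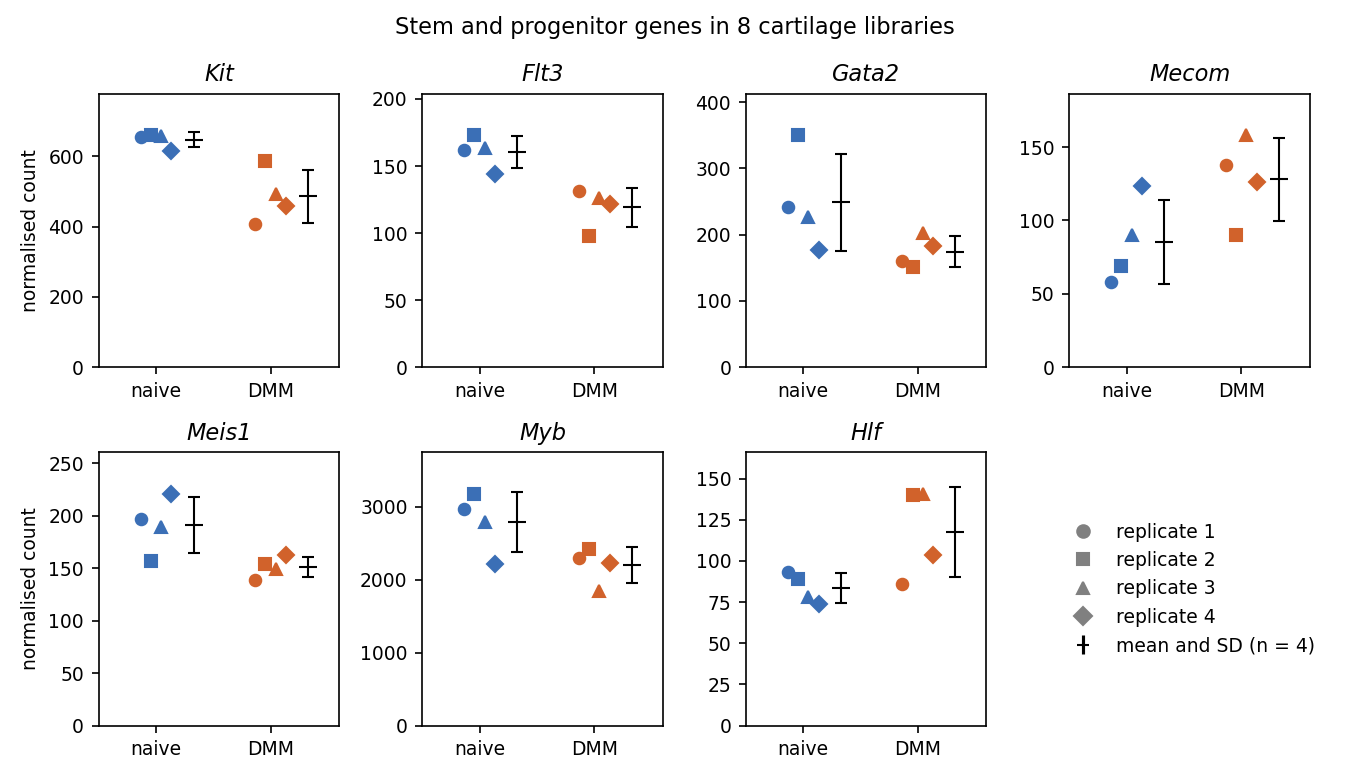
Normalised counts (vertical axes, starting at 0) of the 7 stem and progenitor genes in 4 naive and 4 DMM libraries, with 1 point per mouse, symbols for the replicate number and the mean with SD beside each group. The groups were apart for Kit, whose lowest naive value was 614.54 and highest DMM value 586.94, and for Flt3 (144.0 and 131.03), and overlapped for the other 5 genes.

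Kit, the stem cell factor receptor, lies on chromosome 5 from 75574916 to 75656722 (plus strand, GRCm38). Its normalised counts were 656.03, 659.86, 658.21 and 614.54 in naive replicates 1 to 4 and 406.36, 586.94, 491.46 and 457.58 in DMM replicates 1 to 4. Every naive library lay above every DMM library, and the DMM values were spread more widely than the naive values. The mean was 647.2 ± 21.8 in naive and 485.6 ± 76.1 in DMM cartilage (SD, n = 4 per group). The log2 fold change was -0.42 (SE 0.13, 95% interval -0.67 to -0.16, DESeq2 adjusted p = 0.0107), equal to 0.749 of the naive level. Leaving out a library in turn, Kit passed the adjusted p in 6 of 8 fits, and without naive replicate 1 or DMM replicate 1 its DESeq2 adjusted p was 0.0516 and 0.0549.

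Flt3, the receptor for Flt3 ligand, lies on chromosome 5 from 147330741 to 147400489 (minus strand, GRCm38). Its normalised counts were 161.81, 172.95, 163.75 and 144.0 in naive replicates 1 to 4. In DMM replicates 1 to 4 they were 131.03, 97.824, 125.95 and 121.84. The groups did not overlap, and DMM replicate 2 was the lowest library. The log2 fold change was -0.42 (SE 0.16, 95% interval -0.74 to -0.11, DESeq2 adjusted p = 0.0423). Leaving out a library in turn, Flt3 passed in 1 of 8 fits, without naive replicate 4, and its DESeq2 adjusted p ranged from 0.0404 to 0.152 over them. With edgeR its adjusted p was 0.0576, beside 0.0332 for Kit. Groups that do not overlap with DMM lower were found for 10.3% of tested genes, and with DMM higher for 11.9%, so 2 of the 7 genes were apart in the lower direction and 0 in the higher.

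The start regions of these receptors are shown because they are the genes that passed the adjusted p. Each window is from RefSeq (GRCm38.p6) and spans 250 bases before to 50 bases after an annotated start, at chr5:75574737-75575036 on the plus strand for Kit and at chr5:147400440-147400739 on the minus strand for Flt3.

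Kit: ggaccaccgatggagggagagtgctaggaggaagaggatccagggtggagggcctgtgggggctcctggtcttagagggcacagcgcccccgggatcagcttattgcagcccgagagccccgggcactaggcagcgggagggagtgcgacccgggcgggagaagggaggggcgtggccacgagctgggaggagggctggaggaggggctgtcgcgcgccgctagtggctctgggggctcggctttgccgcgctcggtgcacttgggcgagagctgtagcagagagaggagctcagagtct

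Flt3: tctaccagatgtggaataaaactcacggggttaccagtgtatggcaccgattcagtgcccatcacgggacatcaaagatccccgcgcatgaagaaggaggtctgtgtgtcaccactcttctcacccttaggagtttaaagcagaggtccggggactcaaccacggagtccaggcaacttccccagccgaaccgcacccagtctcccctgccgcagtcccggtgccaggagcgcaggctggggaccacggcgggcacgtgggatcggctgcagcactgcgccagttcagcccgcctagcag

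Both windows are printed without capitals because neither held a match to the 4 motifs searched on both strands, which were AGATAA for GATA factors, TGACAG for Meis, TAACNG for Myb and TTACNTAA for Hlf and related factors. They were rich in G and C, at 69.0% for Kit and 61.0% for Flt3, compared with a median of 52.7% over 32851 promoter windows. Among all windows, 11.2% held AGATAA, 19.2% held TGACAG, 23.3% held TAACNG and 2.32% held TTACNTAA. A missing match says only that these letters do not occur in the window.

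Myb, which keeps progenitors dividing and undifferentiated, was the most abundant of the 7 transcripts and lies on chromosome 10 from 21124935 to 21160984 (minus strand, GRCm38). Its normalised counts were 2974.1, 3178.2, 2794.4 and 2221.2 in naive replicates 1 to 4 and 2298.8, 2420.9, 1850.6 and 2225.6 in DMM replicates 1 to 4. Naive replicate 4 lay within the DMM range, and the other naive libraries lay above all DMM libraries. Its log2 fold change was -0.34 (SE 0.14, DESeq2 adjusted p = 0.0536). Without naive replicate 4 it was -0.44 (DESeq2 adjusted p = 0.0025), still short of 1.5-fold. Gm26577, an antisense gene whose exons overlap those of Myb, averaged 48.6 ± 11.1 normalised counts in naive cartilage and 54.6 ± 9.0 in DMM (SD, n = 4 per group), and 5.37% of the 31-base words of Myb also occur in other genes. Whether the counting used strand was not given in the sources used here.

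Gata2, a zinc finger factor needed for the survival of stem cells and for mast cells, lies on chromosome 6 from 88193891 to 88207032 (plus strand, GRCm38). It had 241.84, 349.89, 225.82 and 176.88 normalised counts in naive replicates 1 to 4 and 160.06, 151.57, 202.51 and 183.21 in DMM replicates 1 to 4. Naive replicate 2 stood highest and naive replicate 4 lay inside the DMM range. This gave a log2 fold change of -0.51 (SE 0.21, 95% interval -0.92 to -0.09, DESeq2 adjusted p = 0.0667). These libraries pulled the value in opposite directions, with -0.30 (DESeq2 adjusted p = 0.289) without naive replicate 2 and -0.64 (DESeq2 adjusted p = 0.00985, called lower) without naive replicate 4.

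Meis1, a homeodomain partner of Hox proteins, lies on chromosome 11 from 18879817 to 19018985 (minus strand, GRCm38). Its normalised counts were 196.99, 156.98, 189.44 and 221.1 in naive replicates 1 to 4 and 139.32, 153.72, 149.82 and 162.45 in DMM replicates 1 to 4. The overlap came from naive replicate 2, the lowest naive library, which lay below DMM replicate 4. The log2 fold change was -0.34 (SE 0.16, DESeq2 adjusted p = 0.101). Its reads are less certain than those of the other genes, since 17.6% of its 31-base words occur elsewhere. The gene that shared them most often was the antisense gene Gm16140, which had at most 4.3 normalised counts in a library. Gm37818, whose exons overlap those of Meis1 on the same strand, was absent from the count table.

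Mecom encodes a zinc finger factor of long-term stem cells and spans chromosome 3 from 29951296 to 30548008 (minus strand, GRCm38). Its normalised counts were 58.041, 69.179, 89.902 and 123.59 in naive replicates 1 to 4 and 137.66, 90.299, 158.06 and 126.35 in DMM replicates 1 to 4. Naive replicate 4 lay above DMM replicate 2, and no other pair of libraries crossed. The naive mean was 85.2 ± 28.8 and the DMM mean 128.1 ± 28.4 (SD, n = 4 per group). The log2 fold change was 0.59 (SE 0.27, 95% interval 0.07 to 1.12, DESeq2 adjusted p = 0.0918). Mecom was called higher without naive replicate 4 (0.83, DESeq2 adjusted p = 0.0091) and without DMM replicate 2 (0.73, DESeq2 adjusted p = 0.0424). Mecomos, an antisense gene overlapping its exons, averaged 12.8 ± 5.59 normalised counts in naive cartilage and 19.2 ± 2.28 in DMM (SD, n = 4 per group).

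The annotation gives Mecom 17 transcripts, and the gene is known to start at an upstream site, which gives the long MDS1-EVI1 form, and at an internal site, which gives the shorter EVI1 form. The table sums these transcripts, so it does not say which start was used. The internal start of Mecom (chr3:30013155-30013454, minus strand) and the start of Meis1 (chr11:19018920-19019219, minus strand) are shown because they were the only windows of the 10 annotated for the 7 genes, some of which overlap, that held a match, with the match in capitals (RefSeq, GRCm38.p6).

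Mecom: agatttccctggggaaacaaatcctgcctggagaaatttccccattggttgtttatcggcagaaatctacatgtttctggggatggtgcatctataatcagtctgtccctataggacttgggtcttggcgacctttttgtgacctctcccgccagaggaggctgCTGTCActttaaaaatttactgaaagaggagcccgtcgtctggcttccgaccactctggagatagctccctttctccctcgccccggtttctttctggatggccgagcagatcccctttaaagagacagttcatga

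Meis1: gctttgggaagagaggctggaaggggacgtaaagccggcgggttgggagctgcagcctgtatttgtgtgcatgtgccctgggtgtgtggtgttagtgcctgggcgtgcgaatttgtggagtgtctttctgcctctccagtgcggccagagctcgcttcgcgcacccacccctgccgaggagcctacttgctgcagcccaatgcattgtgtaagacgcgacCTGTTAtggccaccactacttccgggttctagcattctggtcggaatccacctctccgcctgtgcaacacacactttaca

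The capitals in Mecom are the reverse complement of TGACAG, the Meis motif, and those in Meis1 are the reverse complement of a TAACNG match, the Myb motif. That is 1 window of 10 for each motif, beside 19.2% and 23.3% of all windows. No window of the 7 genes held AGATAA or TTACNTAA. These matches describe the sequence and were not tested as binding sites.

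Hlf encodes a PAR bZIP factor that marks quiescent stem cells and also follows the circadian clock, and lies on chromosome 11 from 90336536 to 90390895 (minus strand, GRCm38). Its normalised counts were 93.217, 89.134, 78.129 and 73.7 in naive replicates 1 to 4 and 86.247, 139.75, 140.77 and 103.79 in DMM replicates 1 to 4. DMM replicate 1 lay inside the naive range, and the other DMM libraries lay above all naive libraries. Its log2 fold change was 0.49 (SE 0.22, 95% interval 0.06 to 0.92, DESeq2 adjusted p = 0.0915), and without DMM replicate 1 it was 0.61 (DESeq2 adjusted p = 0.0363, called higher). The other PAR bZIP genes, Dbp and Tef, were called higher, with log2 fold changes of 1.20 (DESeq2 adjusted p = 1.78e-06) and 0.96 (DESeq2 adjusted p = 8.02e-09) and groups that did not overlap. Dbp went from between 255.79 and 490.71 to between 618.23 and 1064.4 normalised counts. Nfil3, a bZIP repressor acting on the same sites, stood at -0.19 (DESeq2 adjusted p = 0.497). The time of day at which tissue was taken was not given in the sources used here, and its part in these values was not tested.

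Scaling changed these results. With total counts as the scaling factor, the middle of the log2 fold changes, over genes averaging 10 or more normalised counts, moved from -0.01 to 0.14. Mecom (0.74, DESeq2 adjusted p = 0.0354) and Hlf (0.64, DESeq2 adjusted p = 0.0193) were then called higher, 2 of the 7 genes, compared with 11.0% of tested genes called higher under that scaling. Kit and Flt3 kept a lower value but lost the adjusted p, with -0.26 (DESeq2 adjusted p = 0.161) and -0.27 (DESeq2 adjusted p = 0.243). No gene of the 7 changed sign under any alternative that was run.

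**Figure D2:**
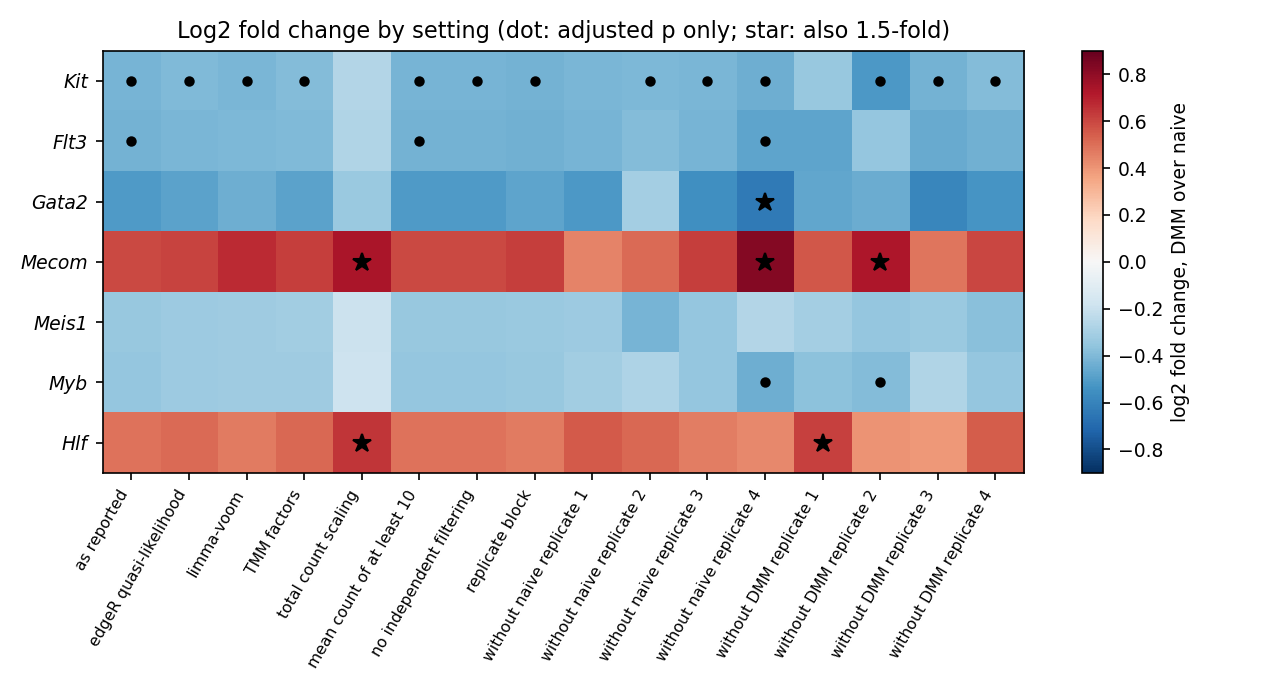
Log2 fold change of each of the 7 genes (rows, blue below and red above 0 on a symmetric colour scale) under the reported fit and the alternatives that change the estimate or the set of genes tested (columns). A dot marks an adjusted p of 0.05 or less and a star also a change of 1.5-fold, which Mecom and Hlf reached under total count scaling, Gata2 and Mecom without naive replicate 4, Mecom without DMM replicate 2 and Hlf without DMM replicate 1.

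Levels of the 7 genes were compared per kilobase of the longest annotated transcript. In naive cartilage the order was Myb at 756.0 ± 111.4 normalised counts per kb, Kit at 123.5 ± 4.16, Gata2 at 69.6 ± 20.4, Flt3 at 40.7 ± 3.06, Meis1 at 25.3 ± 3.50, Mecom at 15.0 ± 5.06 and Hlf at 14.8 ± 1.62 (SD, n = 4). The ranges of Myb, Kit, Gata2 and Flt3 did not overlap, while the lowest Meis1 library (20.8 per kb) lay below the highest Mecom library (21.7 per kb), and Mecom and Hlf were not separable. The order in DMM cartilage was the same down to Flt3, with Myb at 595.4 ± 66.6 and Kit at 92.7 ± 14.5 normalised counts per kb (SD, n = 4). Below it Mecom (22.5 ± 4.99), Hlf (20.9 ± 4.80) and Meis1 (20.0 ± 1.27) lay within each other's spread, and the highest Mecom and Hlf libraries (27.8 and 24.9 per kb) reached into the Flt3 range (24.8 to 33.2 per kb). Per kilobase of merged exons, Hlf stood above Mecom in both groups, at 12.5 compared with 6.85 in naive and 17.6 compared with 10.3 in DMM cartilage, so the order of these genes depends on the length used.

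The genes whose pattern over the 8 libraries was most like that of each member were looked up among 12191 protein coding genes, by Pearson's r of log2(normalised count + 1). These are descriptions over 8 libraries in 2 groups, chosen as the highest of many, and carry no p. Myb was most like Dock2 (r = 0.993) and Samhd1 (r = 0.988), Gata2 like Ppp2r5c (0.989) and Erap1 (0.982), and Kit like Mlkl (0.973) and Ptgs1 (0.971). Flt3 was most like Gm867 (0.984) and Tspo2 (0.978), and Meis1 like Gm17555 (0.956) and Usp50 (0.931). Mecom followed Nova1 (0.991) and Prss23 (0.984), of which Prss23 had 56.282 to 187.08 normalised counts in naive and 125.77 to 365.51 in DMM libraries. Hlf followed Zfp507 (0.963) and 4930523C07Rik (0.957).

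The wider setting of these genes was described with 4 related lists, which hold 74 genes, 72 of them tested. Of these, 12 were called lower and 11 higher, compared with 5.92% and 7.75% of all tested genes, and their median log2 fold change was -0.07. The same shares apply to the counts of called genes in each list that follows. Ligands and signalling partners of the receptors came first. Kitl, the ligand of Kit, stood at -0.02 on the log2 scale (SE 0.14, DESeq2 adjusted p = 0.937), with 614.33 to 786.18 normalised counts in naive and 549.83 to 784.74 in DMM libraries. Flt3l stood at 0.07 (SE 0.19, DESeq2 adjusted p = 0.837). The groups overlapped for both ligands. Of 14 tested genes of this list, 2 were called, and both fell. Among them was Epor, the erythropoietin receptor, at -0.90 in log2 units (DESeq2 adjusted p = 0.000279). Vav1 (-0.44), Csf2rb (-0.50), Cbl (-0.30) and Pik3cg (-0.39) passed the adjusted p with less than a 1.5-fold difference.

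Among 26 transcription factor partners, 7 were called lower and 2 higher, compared with 5.92% and 7.75% of all tested genes. The 7 lower genes were Tal1 (-0.89), Gata1 (-0.94), Gfi1b (-0.84), Nfe2 (-0.81), Lyl1 (-0.74), Lmo2 (-0.69) and Zfpm1 (-0.60), given as log2 fold changes. Gata1, Gfi1b, Nfe2 and Zfpm1 act in the erythroid and megakaryocyte lineages, and Tal1, Lyl1 and Lmo2 act there and in stem cells. Gata1, the family member that takes over from Gata2 as erythroid cells mature, had 312.94 to 568.07 normalised counts in naive and 197.65 to 299.65 in DMM libraries, without overlap. Gfi1b and Zfpm1 overlapped between groups and kept the call in 4 and 3 of 8 fits with a library removed, and Gfi1b, Zfpm1, Lmo2 and Lyl1 were not called under total count scaling. Hoxa10 (0.75) and Hoxa9 (0.61) rose, Hoxa9 with its call in 2 of those 8 fits and overlapping groups. Runx1, a factor of definitive blood stem cells that cartilage also expresses, was higher by 0.34 (DESeq2 adjusted p = 0.00183), under the fold threshold. Etv6 (-0.42), Spi1 (-0.49) and Ikzf1 (-0.51) passed the adjusted p in the lower direction, also under it (DESeq2 adjusted p = 0.00031, 0.00275 and 0.00784). Erg (-0.01), Ldb1 (-0.02), Fli1 (-0.31) and Hoxb4 (-0.22) did not pass the adjusted p.

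Family members of the 7 genes were set beside them. Of 13 tested, 2 were called lower and 5 higher. Mybl2, a Myb relative linked to the cell cycle, fell by 0.81 (DESeq2 adjusted p = 9.14e-05), beside -0.34 for Myb. Meis3 rose by 0.67 (DESeq2 adjusted p = 0.0134), beside -0.34 for Meis1, with its call in 6 of 8 fits with a library removed. The related receptors Pdgfra and Pdgfrb, which are used by mesenchymal cells, rose by 0.62 and 0.68 (DESeq2 adjusted p = 0.00183 and 0.000132), Pdgfra with its call in 5 of those 8 fits, and Csf1r, the macrophage receptor, stood at 0.20 (DESeq2 adjusted p = 0.295). Prdm16, the closest relative of Mecom, stood at -0.22 (DESeq2 adjusted p = 0.701). The differences between relatives were not tested.

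Of 21 other stem and progenitor genes, 2 were called lower and 4 higher. Slamf1, a surface marker of stem cells and lymphocytes, fell by 0.94 (DESeq2 adjusted p = 8.04e-05) and Muc13 by 1.08 (DESeq2 adjusted p = 0.000405). Ly6a, which encodes Sca-1 and is also made by endothelial and mesenchymal cells, rose by 1.01 (DESeq2 adjusted p = 0.000249). Fgd5 (0.74), Robo4 (0.76) and Egfl7 (0.66) rose as well, and all are known from endothelium. Robo4, whose groups overlapped, kept its call in 5 of 8 fits with a library removed. Cdk6 (-0.52), Angpt1 (-0.49) and Sox4 (0.44) passed the adjusted p under the fold threshold. Procr (0.56, SE 0.46), Cd34 (0.28, SE 0.22), Mllt3 (-0.12, SE 0.11) and Hoxb5 (0.72, SE 0.58) overlapped between groups and did not pass the adjusted p. Hoxb5 and Procr averaged only 13.9 and 44.6 normalised counts, and their changes are imprecise. Mycn, at 22.563 to 47.488 normalised counts, stood at -0.72 (DESeq2 adjusted p = 0.0501).

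**Figure D3:**
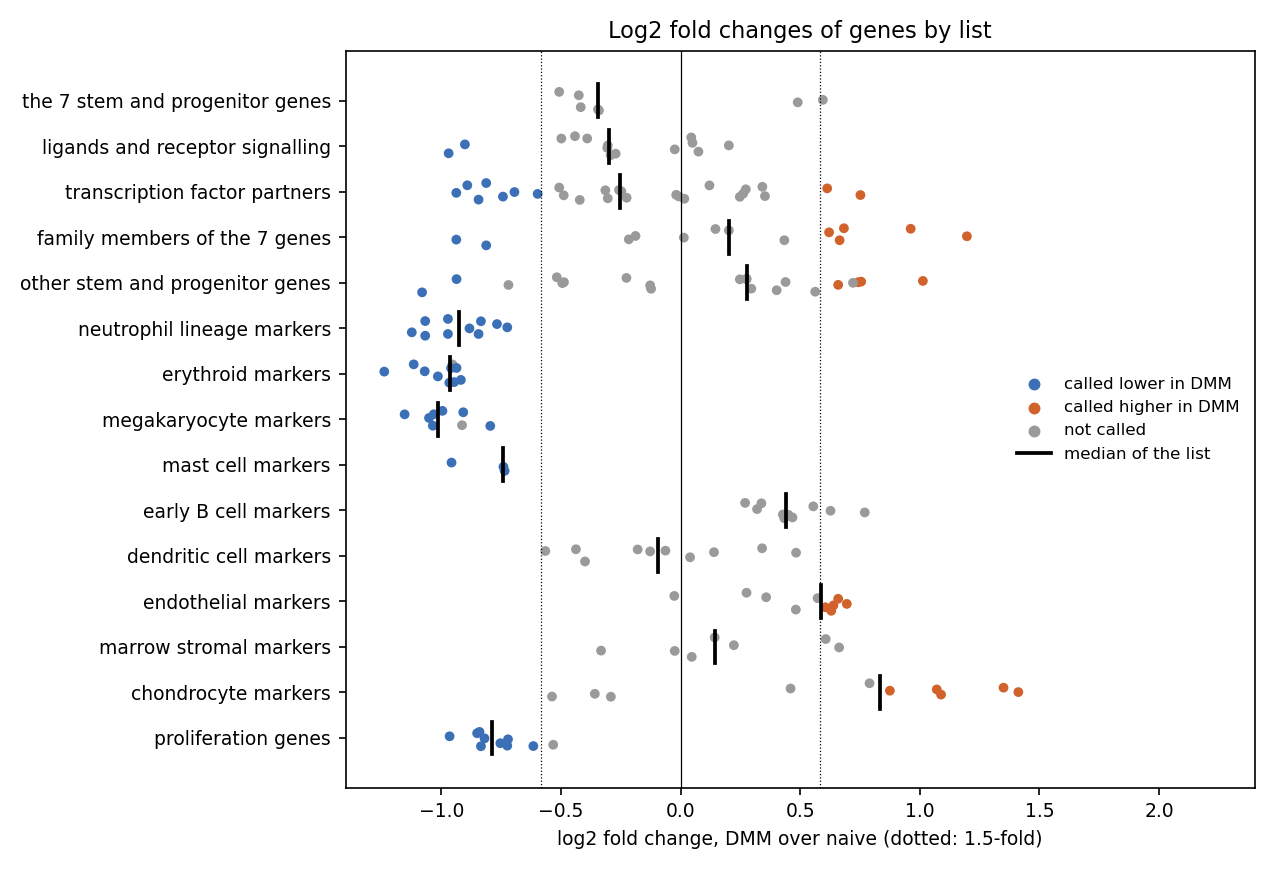
Log2 fold changes (horizontal axis, DMM over naive) of the tested genes in each list (vertical axis), with 1 point per gene, blue for genes called lower, orange for genes called higher, grey for genes not called and a bar at the median of each list. The 7 stem and progenitor genes lie between -0.51 and 0.59 with a median of -0.34, to the right of the neutrophil (-0.93), erythroid (-0.96) and megakaryocyte (-1.01) medians.

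The neutrophil, erythroid and megakaryocyte lists had lower medians than the 7 genes, and the early B cell and dendritic cell lists higher ones. All 10 neutrophil lineage markers, 9 of 10 erythroid markers and 7 of 8 megakaryocyte markers were called lower, with median log2 fold changes of -0.93, -0.96 and -1.01. Mpo changed by -1.07, Hba-a1 by -1.24 and Ppbp by -1.15. Of the 10 proliferation genes 9 were called lower, with a median of -0.79, and Mki67 changed by -0.83 beside -0.34 for Myb. The early B cell list, in which Flt3 is known to act, had 0 of 10 called by DESeq2 (2 at an unadjusted p under 0.05, 0 called by edgeR). Its median was 0.44, and all 10 genes stood above 0. Ebf1 (0.43, DESeq2 adjusted p = 0.0198) passed the adjusted p in the higher direction, under the fold threshold, with groups that did not overlap. Rag1 lay between 500.03 and 1007.1 normalised counts in naive and between 617.41 and 1955.4 in DMM libraries. The dendritic cell list had 0 of 10 called by DESeq2 (4 at an unadjusted p under 0.05, 0 called by edgeR) and a median of -0.09, with 6 genes below and 4 above 0. Siglech (-0.57) and Irf8 (-0.44) passed the adjusted p in the lower direction (DESeq2 adjusted p = 0.0151 and 0.0144) and Tcf4 (0.48) in the higher (DESeq2 adjusted p = 0.00108), all under the fold threshold.

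Mast cell markers are given beside Kit and Gata2, neither of which was called. Of the 8 genes, 3 were tested and all 3 were called lower, namely Cpa3 (-0.74), Ms4a2 (-0.96) and Hdc (-0.74), with groups that overlapped for Cpa3 and Hdc. Connective tissue mast cell proteases were low, with at most 9.12 normalised counts of Mcpt4, 4.54 of Tpsb2 and 14.1 of Cma1 in a library and none of Tpsab1. The mast cell list took 0.00432% to 0.00636% of counts in naive and 0.00309% to 0.00477% in DMM libraries. The part of these cells in the values of Kit and Gata2 was not tested.

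Endothelial markers are given beside Mecom, Meis1 and Gata2, which also act in endothelium. Hlf, named above for its circadian output, is given as well, and none of these genes was called. Of 10 genes, 5 were called higher, among them Cdh5 (0.63, DESeq2 adjusted p = 5.61e-07), Plvap (0.64, DESeq2 adjusted p = 9.44e-06) and Emcn (0.69, DESeq2 adjusted p = 0.0188), while Pecam1 stood at -0.03. Their summed share of counts was 0.0275% to 0.0370% in naive and 0.0449% to 0.0530% in DMM libraries. None of the 10 was at 0. The log2 fold change was 0.59 for Mecom, but -0.34 for Meis1 and -0.51 for Gata2, while Hlf stood at 0.49. The part of endothelial RNA in the values of Mecom, Meis1, Gata2 and Hlf was not tested.

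To set each gene beside the lineages without a scaling factor, a comparison added after seeing the data, the log2 ratio of its count to the summed counts of a marker list was taken in each library and compared between groups by a two-sided exact permutation test over 70 assignments, in 28 comparisons. Against the megakaryocyte sum, Kit was 1.51-fold higher in DMM (log2 difference 0.60), Myb 1.61-fold and Meis1 1.62-fold, each with groups that did not overlap (exact permutation p = 0.0286, adjusted p = 0.0571). Against the same sum, Mecom was 3.12-fold and Hlf 2.81-fold higher (exact permutation p = 0.0286, adjusted p = 0.0571). Flt3 (1.51-fold, exact permutation p = 0.0857) and Gata2 (1.46-fold, exact permutation p = 0.0571) overlapped between groups against it. The ratio of each of the 7 genes to the neutrophil, erythroid and megakaryocyte sums had a higher mean in DMM than in naive libraries. Against the neutrophil sum, Kit, Flt3, Gata2 and Myb were 1.36-fold (Gata2) to 1.49-fold (Myb) higher, and Meis1 1.5-fold, with groups that overlapped. The groups were apart there for Mecom (2.89-fold) and Hlf (2.61-fold). Against the erythroid sum only Mecom (3.28-fold) and Hlf (2.95-fold) had groups that were apart. These ratios, and those to the endothelial sum below, largely restate the changes of the genes and of the marker lists given above. Their p-values are therefore not separate support.

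Against the endothelial sum the genes divided. Kit (0.569), Flt3 (0.566), Gata2 (0.549), Meis1 (0.609) and Myb (0.605) had ratios below their naive level, given as DMM over naive, and the groups did not overlap for any of them (exact permutation p = 0.0286, adjusted p = 0.0571). Mecom (1.17, exact permutation p = 0.514) and Hlf (1.06, exact permutation p = 0.714) overlapped between groups. The groups were apart in 14 of the 28 comparisons and none passed after adjustment, where 0.0286 is the smallest p that 4 against 4 libraries allow. Each sum leans on its most abundant gene, which was S100a9 with 24.0% of the neutrophil sum, Hba-a2 with 34.1% of the erythroid sum, Itga2b with 29.8% of the megakaryocyte sum and Pecam1 with 27.4% of the endothelial sum.

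**Figure D4:**
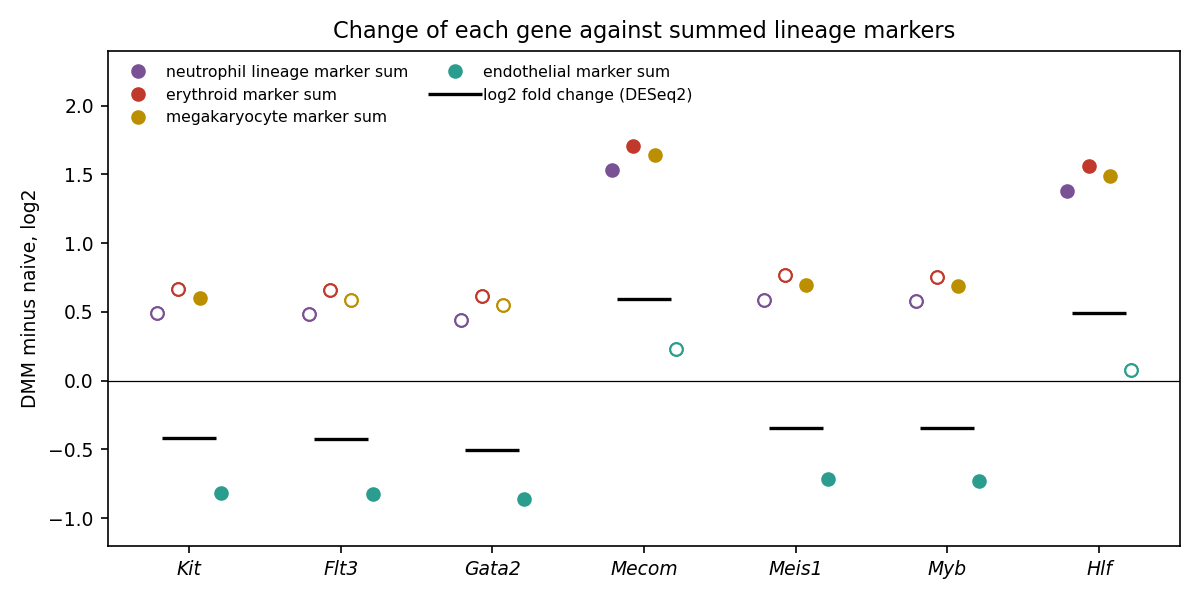
Difference between DMM and naive libraries in the mean log2 ratio of each gene to 4 marker sums (coloured points, filled where the groups did not overlap and open where they did), beside the DESeq2 log2 fold change (black bars). Mecom and Hlf lie near 0 against the endothelial sum (0.23 and 0.08) and above 1.3 against the blood lineage sums, while the other 5 genes lie above 0 against the blood lineage sums and below 0 against the endothelial sum.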

How the data were processed

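Total RNA of medial knee cartilage caps was sequenced from 4 naive and 4 DMM mice. The deposited table holds estimated counts per gene, which the authors made by trimming with Trimmomatic, pseudo-alignment with Kallisto and summing to genes with tximport. Of its values, 39.2% were not whole, and all were rounded before testing. The study's methods name GRCm38 and the submitters' processing notes name GRCh38 for these mouse samples, so the build is uncertain. Coordinates and lengths are those of GENCODE vM21 (GRCm38), looked up by gene identifier. The labels name an NEB low input kit and the methods a SMART-Seq kit.

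All 8 libraries were fitted with DESeq2 1.42.0 in R 4.3.3 (Wald test, median-of-ratios factors). edgeR 4.0.16, limma 3.58.1 and other settings were alternatives. The fit was tested on simulated data (19728 genes, 200 changed 2-fold), where 121 changed genes and 20 unchanged genes were called. Changes smaller than 2-fold, such as those of the 7 genes, were not simulated. Log2 ratios to marker sums added 0.5 to the count of the gene. The named genes were the 7 members, called genes of the related lists, marker genes given beside a member, and the 2 protein coding genes most correlated with each member (mean of at least 50). Uncalled genes of the related lists were chosen for naming after their values were seen. Some genes of the related lists enter the counts but are not reported here by name. The members and lists were chosen with earlier results of these data known. Replicates are separate mice. Same-numbered libraries did not deviate together (correlations 0.05, 0.06, -0.12 and 0.12), so the replicate number was not used as a block.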

Additional observations from a re-analysis of the deposited data

Results flagged for a closer look

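Among 46 sets of 4 values examined for a library far from the rest (Dixon's ratio), 6 held such a library, where about 2.3 are expected by chance. The normalised count of Kit was 614.5 in naive replicate 4 and 656.0 to 659.9 in the other naive libraries, and without that library Kit kept an adjusted p under 0.05 (0.0149, DESeq2). Naive replicate 2 had 0.0455% of its counts in the other stem and progenitor genes (the rest lay between 0.0475% and 0.0479%), and 0.0275% in endothelial markers (0.0357% to 0.0370%). Erythroid markers took 1.314% of counts in DMM replicate 3 and 0.6233% to 0.6857% in the other DMM libraries. Marrow stromal markers took 0.1297% in naive replicate 1 (0.0958% to 0.0968% in the others) and 0.1583% in DMM replicate 2 (0.1016% to 0.1103% in the others). The causes were not tested.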

How the results depend on the processing

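Of 119 values of the 7 genes under alternatives, 0 reversed sign and 8 gained a call. The genes called lower, 0 as reported, were 2 without a fold threshold and 0 to 1 when a library was left out, and those called higher, 0 as reported, were 2 under total count scaling and 0 to 1 when a library was left out. Over all genes 2429 were called, with 4010 without a fold threshold, 94 against a null of 1.5-fold and 1858 to 2842 when a library was left out. Of the related genes, 12 were called lower, with 21 without a fold threshold, 0 against the 1.5-fold null and 10 to 14 when a library was left out, and 11 higher, with 0 against the 1.5-fold null and 7 (without naive replicate 1) to 12 when a library was left out. The changes without a fold threshold and against the 1.5-fold null follow from their construction, and the cause of the others was not tested. The fit with the replicate block called 2081 genes, none of them among the 7, and gave Flt3 a DESeq2 adjusted p of 0.166. The naive and DMM libraries share only a number, and the block is given for completeness. edgeR called 2082 genes and limma-voom 2167. In the 224 ratios to marker sums without a library, the sign changed in 2, both for Hlf against the endothelial sum (-0.06 to 0.23). Mecom and Hlf had the lowest counts of the 7, and their 95% intervals on the log2 scale ran from 0.07 to 1.12 and from 0.06 to 0.92.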

Other observations

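Genes of the marrow stroma, which holds stem cells in place, were set beside the 7 genes. None of the 7 stromal markers was called by DESeq2 (2 at an unadjusted p under 0.05, 0 called by edgeR). Cxcl12, the main attractant of stem cells, had 8531 to 11612 normalised counts in naive and 8091.1 to 13994 in DMM libraries, a log2 difference of 0.05 (DESeq2 adjusted p = 0.895). Lepr stood at 0.14 (DESeq2 adjusted p = 0.488) and Vcam1 at -0.33 (DESeq2 adjusted p = 0.165). Adipoq, an adipocyte transcript, stood at 0.61 (DESeq2 adjusted p = 0.109) and was highest in DMM replicate 2, at 1105.1 normalised counts. Angpt1, which signals from stroma and progenitors to Tek, was lower in all DMM libraries, at 257.91 to 327.64 compared with 347.83 to 469.62 normalised counts (log2 fold change -0.49, DESeq2 adjusted p = 0.00589), under the fold threshold, while Tek was higher by 0.57 (DESeq2 adjusted p = 0.000574), also under it.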
